A study of Mus musculus and Rattus norvegicus with 6 samples.

Results

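The genes that encode the proteins of the cytosolic ribosome were followed across 6 liver arrays, 3 of mice and 3 of rats. A probe set, the group of probes an array holds for a transcript, was a member if its only annotated symbol was Rpl or Rps with a number and an optional letter or l suffix, or Rplp0, Rplp1, Rplp2 or Rpsa. A copy number after the suffix (Rps3a1, Rpl22l1) was allowed, and the ribosomal S6 kinases, which share the prefix, were left out. This gave 105 probe sets of 49 genes among 45037 mouse probe sets, and 55 probe sets of 48 genes among 31042 rat probe sets. The 2 species had 29 symbols in common and 68 symbols in all.

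All animals were 20-week-old males, and every liver was taken 6 hours after an intraperitoneal injection. The mice were C57/BL6J, and their groups were WT given saline, Lepob/Lepob given saline and Lepob/Lepob given recombinant murine leptin. The rats were F344/NSlc, and their groups were WT given saline, Lepmkyo/Lepmkyo given saline and Lepmkyo/Lepmkyo given the same murine leptin. The labels of the mutant rats disagree among themselves: the genotype field has Lepmyo/Lepmkyo, the source field has Lepob/Lepob and the series title has Lepmkyo/Lepmkyo, the name used here. No WT animal was given leptin. The mutants lack leptin throughout the body and from birth, so their livers also carry what that does to feeding and body weight. Each group was 1 array, and the labels do not say whether its RNA came from 1 animal or from several. There are no replicates, so no difference was tested and no value has an error across animals. The leptin gene, Lep, read 2.8 to 6.0 on all 6 arrays, under the lowest signal used here, which checks no genotype because liver is not where the hormone is made.

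A ribosome has a small subunit, which reads the messenger RNA, and a large subunit, which joins the amino acids. Each subunit is ribosomal RNA bound by many proteins, most of them present in 1 copy, and cells tend to hold the messenger RNAs of these proteins at high and matched levels. Most of these messengers start with a 5′ terminal oligopyrimidine (TOP) tract, a C at the start site followed by a run of C and T. Through it, mTORC1 and the RNA-binding protein LARP1 set how much of the message is translated, so protein output can change with no change in messenger level. Insulin and nutrients are among the main inputs of that pathway in liver, and leptin is a fat-cell hormone that lowers feeding.

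The start sites of the members were read from RefSeq (GRCm38.p6), whose table held 43 of the 49 mouse symbols. A tract was a C followed by at least 4 bases that were each C or T, read on the transcribed strand alone, with its C within 5 bases of an annotated start. Of the 43 members 20 had one (46.5%), against 23.1% of 14452 genes on the mouse array and 21.2% of 27025 genes in the table. With the C exactly at the start the shares were 8 of 43 (18.6%), 2.93% and 3.01%. The windows below run from 15 bases before the start to 15 bases from the start on, with the tract in capitals. They are shown because the results turn on these genes: Rps6, the S6 kinase substrate, Rps18, Rps27 and Rpl12, which held the largest mouse ratios, and Rpl39, which held the largest rat ratio and is shown at its mouse start. Rpl38 is shown as a member with a tract exactly at its start and a small ratio, and Rplp0, the largest mouse ratio of the stalk, as one in which these letters were not found.
Rps6, chr4:86857353-86857382, minus strand: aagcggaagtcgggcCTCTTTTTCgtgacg
Rps18, chr17:33955651-33955680, minus strand: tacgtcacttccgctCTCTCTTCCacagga
Rps27, chr3:90213634-90213663, minus strand: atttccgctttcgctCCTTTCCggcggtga
Rpl12, chr2:32961697-32961726, plus strand: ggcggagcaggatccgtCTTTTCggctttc
Rpl38, chr11:114668565-114668594, plus strand: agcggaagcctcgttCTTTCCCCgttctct
Rpl39, chrX:37085208-37085237, minus strand: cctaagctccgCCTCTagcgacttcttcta
Rplp0, chr5:115559452-115559481, plus strand: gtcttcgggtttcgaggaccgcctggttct

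Values are deposited MAS5 signals on a linear scale. Each gene was read from the brightest of its probe sets, by mean signal, and was measured if at least 1 of the 2 arrays compared reached a floor, the median of all values of the platform (82.7 in mice, 97.0 in rats). The floor was reached on all 3 arrays by 46 of 49 mouse and 43 of 48 rat members. Those under it on all arrays were Rpl39l, Rpl3l and Rps16 in mice, and Rpl28, Rpl30, Rpl39l1, Rpl3l and Rps13 in rats. Of these, Rpl3l and Rpl39l are known as muscle and testis forms. Rps16, Rpl28, Rpl30 and Rps13 are core ribosomal proteins, and for each of them in that species a probe set with several annotated symbols, left out by the rule, read 12095.5 or more on all 3 arrays. For 40 genes of each species the signal was at least 1000 on all 3 arrays. The members' median signal was 13794 in WT mice, 13170.0 in Lepob/Lepob mice given saline and 13681 after leptin. In rats it was 13087, 13383 and 14525 in the same order. The 3 medians of a species lay close together, and they are set against all genes next.

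In the livers of Lepob/Lepob mice given saline the ribosomal protein genes stayed near their WT signals. The median log2 ratio of the 46 members was -0.09 (lower and upper quartile -0.20 and 0.12), with 17 above 0 and 29 below, where 47.4% of all 11956 genes measured were above 0. The side of 0 depends on the scaling: the members' median was 0.0025 after quantile normalization and 0.16 with each array centred on its median. That centring moved the median of all genes to 0.22, and the members' median minus that of all genes was -0.06 as deposited, -0.04 after quantile normalization and -0.05 after centring. The members lay in a narrow band. Within 1.2-fold of WT were 37 of 46 members (80.4%), against 42.0% of all genes. Past 1.2-fold, 4 members were higher and 5 lower, where 27.5% and 30.5% of all genes were; past 1.5-fold it was 1 and 1, where 12.3% and 12.6% were. Bright probe sets are read more evenly than dim ones. The members were therefore also set beside the 2350 genes at or above a signal of 2066, the members' own lower quartile. Of these, 45.6% were within 1.2-fold and 56.6% above 0, and the median was 0.07. That cut lies far under the members' median signal (13794 in WT mice), so the set is not matched to them in brightness. In rats the same rule gave a cut of 10207, nearer the members' median.

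In Lepmkyo/Lepmkyo rats given saline the members were also close to WT. Their median log2 ratio was 0.06 (quartiles -0.02 and 0.12) over 43 genes, with 27 above 0 and 16 below, where 55.2% of all 9817 genes were above 0 and their median was 0.04. Within 1.2-fold were 39 of 43 (90.7%), against 52.8% of all genes and 72.2% of the 406 genes at or above a signal of 10207, of which 44.6% were above 0. Past 1.2-fold were 2 higher and 2 lower (27.6% and 19.6% of all genes), and past 1.5-fold 0 and 1 (10.2% and 5.92%). The median lay above 0 under each scaling tried.

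After leptin the ratios lay in a narrower band still, although the rat median was further from 0 than for genotype (0.08 against 0.06). In Lepob/Lepob mice, 44 of 46 members (95.7%) were within 1.2-fold of the saline array, against 76.4% of all 11536 genes and 94.1% of the bright genes, so the members' share was close to that of other bright genes. Past 1.2-fold were 0 higher and 2 lower (11.7% and 11.9% of all genes), and past 1.5-fold 0 and 1 (2.18% and 2.21%). Their median was 0.03, with 34 above 0 against 49.4% of all and 52.0% of the bright genes, and it turned to -0.0015 after quantile normalization and -0.01 after centring. In Lepmkyo/Lepmkyo rats, 41 of 43 (95.3%) were within 1.2-fold, against 72.4% of all 9705 genes and 94.8% of the bright genes. Past 1.2-fold were 2 higher and 0 lower (13.2% and 14.3% of all genes), and past 1.5-fold 1 and 0 (2.12% and 2.59%). The rat members' median was 0.08 and 38 of 43 were above 0, against 52.0% of all genes. Among the bright rat genes, though, 79.3% were above 0 with a median of 0.07. After quantile normalization the rat median was 0.02 and 25 of 43 were above 0. The genotype and the leptin comparison of a species share the mutant saline array, so their ratios are not independent of each other.

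**Figure D1:**
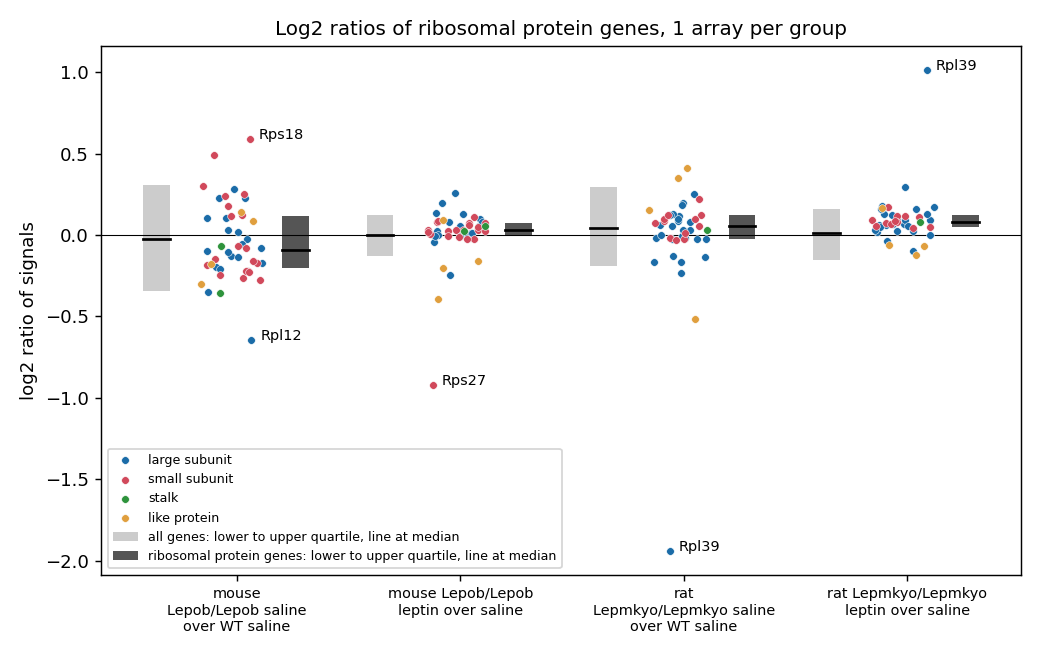
Log2 ratio of the signal of each ribosomal protein gene (points, coloured by role) in the 4 comparisons, beside the lower to upper quartile and median of all genes (light bars) and of the members (dark bars), 1 array per group. The members' bars are narrower than those of all genes in each comparison, and only Rps18, Rpl12, Rps27 and Rpl39 lie past 1.5-fold.

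Markers of liver cell types moved with the same arrays. The hepatocyte markers had a median log2 ratio of -0.33 in the mouse mutant given saline, with 1 of 12 above 0, and -0.16 in the rat mutant, with 1 of 13 above 0. Their summed signal was 477347, 367119 and 377400 in mice (WT saline, mutant saline, mutant leptin) and 468586, 416242 and 454100 in rats. The summed signal of 10 stellate cell and fibroblast markers was 14555, 22985 and 23679 in mice and 3619, 9981 and 10132 in rats, and that of the Kupffer cell and macrophage markers 22457, 31090 and 28844 in mice (13 genes) and 18282, 21070 and 22078 in rats (11 genes). In the mutants given saline, 7 of 10 mouse and 8 of 9 measured rat stellate cell and fibroblast markers were above 0. Of the Kupffer cell and macrophage markers 10 of 13 mouse and 9 of 11 rat genes were. Mouse Cd163 (-1.08), Marco (-0.95) and Clec4f (-0.21) were below 0. None of the markers of these 3 types was under the floor on every array. After leptin the hepatocyte markers' median was 0.04 in mice (10 of 12 above 0) and 0.12 in rats (13 of 13 above 0). Endothelial markers summed to 8518, 10984 and 10577 in mice and 7139, 9218 and 10095 in rats, with none of 10 and 8 under the floor throughout. Of the endothelial markers 8 of 10 mouse and 7 of 8 rat genes were above 0 in the mutants given saline. Mouse Pecam1 (-0.98) and Eng (-0.96) were below 0. The other lists were partly under the floor on every array. Neutrophil markers (1 of 8 mouse and 2 of 4 rat genes under it) summed to 729.8, 889.8 and 2072.8 in mice, with a leptin median of 1.16, and to 218.1, 352.2 and 472.0 in rats. Of the red blood cell markers 2 of 3 mouse and 1 of 4 rat genes were under it. They summed to 2790.8, 1273.8 and 1175.5 in mice and 8677, 19294 and 20201 in rats. The mouse sum was nearly all Alas2 (-1.28 in the mutant). The rat sum was nearly all Hbb (1.18), which was not among the mouse genes. Rat Alas2 was at 0.86 and rat Slc4a1 at -0.39. Adipocyte markers (3 of 6 and 3 of 7 under it, Lep among them) summed to 4558, 9818 and 8750.3 in mice and 3273, 5600 and 5090.3 in rats. In mice the rise lay in Cidec (32.6, 3144.2 and 2808) and Fabp4 (1125.1, 3250.7 and 3138.5). Mouse Lpl read 3312.6, 3356.2 and 2699.7, and Adipoq was under the floor on every array of both species. Rat Cfd was lower in the mutant (-0.37). Of the bile duct markers 3 of 6 in each species were under the floor. They summed to 575.1, 293.4 and 320.4 in mice and 575.0, 1049.4 and 1076.6 in rats. Of the lymphocyte markers 7 of 10 mouse and 6 of 10 rat genes were under it. Their sums were 1052.5, 1208.2 and 1340.1 in mice and 855.4, 1030.1 and 1143.8 in rats. For genotype 2 of 3 measured in each species were above 0, and mouse Ms4a1 (-0.63) and rat Lck (-0.61) were below. All cells make ribosomes, in bulk liver a change in the mix of cells and a change in RNA per cell cannot be told apart, and the markers' part in the members' ratios was not tested.

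Both subunits gave much the same picture. In the mouse mutant the 20 large-subunit genes had a median log2 ratio of -0.09 and the 20 small-subunit genes of -0.12, with 7 and 8 above 0. In the rat mutant the medians were 0.02 over 26 large-subunit and 0.08 over 12 small-subunit genes. After leptin they were 0.03 and 0.03 in mice and 0.07 and 0.08 in rats, and all 12 rat small-subunit genes were above 0. Mouse members were also split by a TOP tract within 5 bases of an annotated start, with 20 measured genes on each side. Those with one and those without had medians of -0.08 and -0.14 in the mutant and 0.03 and 0.02 after leptin. Start sites were annotated and not measured here, so a member without a tract found there may still carry one.

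The stalk is the arm of the large subunit that recruits the translation factors. Rplp0, its scaffold and a gene often taken as a reference in expression assays, read 23221 in WT mice, 18160.4 in Lepob/Lepob mice given saline and 18846 after leptin. The mutant was 1.28-fold lower on this array, and the leptin array lay beside it. In rats Rplp0 read 14733, 15042 and 15896, a genotype log2 ratio of 0.03 against -0.35 in mice. Rplp2, which binds Rplp0 as part of a pair with Rplp1, read 19006, 18123 and 18454 in mice (genotype log2 ratio -0.07). Rpl12, at the base of the stalk, had the largest ratio below WT of all mouse members, on a dim probe set: 276.7, 177.0 and 181.6, or 1.56-fold lower in the mutant (log2 -0.64). It was the 1 member past 1.5-fold on that side. A pair of mouse probe sets annotated to Rpl12 and to pseudogenes, and so no members, went the same way with smaller ratios. They read 9114, 6659 and 6504 (-0.45), and 16235, 13096 and 12339 (-0.31). The rat Rpl12 probe set read 12539, 12833 and 14356, with a genotype log2 ratio of 0.03. As deposited, the lower Rpl12 signal stood on 3 mouse probe sets and not on the rat one.

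Among the small-subunit genes Rps18, another common reference gene, had the largest mouse ratio above WT. Its brightest probe set read 12786, 19253 and 20779, which is 1.51-fold higher in the mutant (log2 0.59). It was the 1 member past 1.5-fold on the higher side. A pair of further Rps18 probe sets of like signal went the other way, 12772, 11190 and 11286 on one (-0.19) and 18047, 15526 and 15919 on the other (-0.22). The direction of Rps18 therefore hangs on the probe set. The brightest one and the other pair all carry a suffix that Affymetrix gives to probes that may bind several transcripts.

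Rps27, a zinc-finger protein of the small subunit, was read by a single dim probe set at 418.2, 587.0 and 309.6. It was 1.40-fold higher in the mutant and 1.90-fold lower after leptin (log2 -0.92), the only mouse member past 1.5-fold after leptin. A probe set shared by Rps27 and its retrocopy Rps27rt read 9208, 9542 and 10002, with log2 ratios of 0.05 and 0.07. The brighter probe set thus showed neither difference.

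Rps19, in which mutations cause the red cell disorder Diamond-Blackfan anaemia, was higher in both mutants. Its mouse probe set read 8108, 9986 and 10220.3, 1.23-fold above WT (log2 0.30). In rats Rps19 was read by a probe set with several symbols, which is no member: it read 10661, 15039 and 15829, a log2 ratio of 0.50, the highest of the 36 rat probe sets of that kind. The log2 ratio of leptin to mutant saline was 0.03 in mice and 0.07 in rats. Rps26, another Diamond-Blackfan gene, read 13794, 11398 and 11634 in mice (1.21-fold lower).

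Rps6, whose phosphorylation by S6 kinase is the usual readout of mTORC1, read 1051.6, 1250.2 and 1303.4 in mice, with log2 ratios of 0.25 and 0.06. In rats it read 17586, 17738 and 18588, with ratios of 0.01 and 0.07. The messenger says nothing of that phosphorylation. Rpsa, also known as a laminin receptor, read 12283, 10501 and 10440.0 in mice (-0.23) and 11185, 10942 and 11829 in rats (-0.03).

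Of the other mouse large-subunit genes, Rpl27a read 1203.5, 944.2 and 1080.4 and was 1.27-fold lower in the mutant. A brighter probe set, shared by Rpl27a and other loci, read 20452, 18692 and 18446 (-0.13). Rpl37 read 1909.2, 2326.9 and 1962.4, 1.22-fold higher in the mutant and back near WT after leptin. A pair of bright probe sets shared by Rpl37 and its copy Rpl37rt had genotype ratios of -0.01 and -0.04. A dim one shared by the same genes read 333.9, 134.8 and 101.9 (-1.31). Rpl11, which with Rpl5 binds and restrains MDM2, the inhibitor of p53, read 16983, 14845 and 14935 in mice (-0.19) and 15583, 15386 and 16252 in rats (-0.02). Rpl13a, a further reference gene, read 22967, 23288 and 24633 in mice (0.02) and 11644, 12323 and 12510.0 in rats (0.08). By brightest member probe set, Rpl13a had, among the genes of this paragraph, the genotype ratio nearest 0 in mice. Its leptin ratio there was 0.08. Over its 4 mouse probe sets the genotype ratios ran from -0.46 to 0.10 and the leptin ratios from -0.01 to 0.50.

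Rpl39, a small protein at the tunnel through which the new chain leaves, had the largest ratios of all rat members. Its single probe set read 478.3 in WT rats, 124.8 in Lepmkyo/Lepmkyo rats given saline and 252.0 after leptin. It was 3.83-fold lower in the mutant (log2 -1.94) and 2.02-fold higher after leptin (log2 1.01). The mutant leptin array lay between the others, and both ratios rest on the same mutant saline array, where the signal was close to the floor of 97.0. It was the 1 rat member past 1.5-fold in each comparison. With the floor at the upper quartile of all rat signals the genotype ratio was -0.08. The mouse probe set of Rpl39, also dim, read 415.9, 409.8 and 449.5 (log2 -0.02 and 0.13), and a bright one shared with another locus read 29599, 27365 and 27934 (-0.11). Neither mouse probe set showed a difference of that size.

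Rpl5 had the next largest rat ratio after leptin, on a bright probe set that read 19165, 17088 and 20969. It was 1.23-fold above mutant saline, where 13.2% of all rat genes were at least 1.2-fold higher, and it also ended above WT. Mouse Rpl5 was read only by probe sets with several symbols, and the brightest of them read 23923, 20956 and 21655 (log2 -0.19 and 0.05). Rpl3, which lines the catalytic centre, read 14209, 16945 and 18095 in rats (0.25 and 0.09) on its brightest probe set. A second, dim Rpl3 probe set read 636.8, 209.3 and 501.8, with log2 ratios of -1.61 and 1.26 that go against the first.

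The like proteins and paralogues, which resemble a ribosomal protein and are not all part of the common ribosome, were 3 of the 4 rat members past 1.2-fold in the mutant. Rps27l, a paralogue of Rps27 known as a p53 target, was higher in both mutants. It read 17950.2, 19762 and 21087 in mice (0.14) and 1173, 1498 and 1431 in rats (0.35). All 3 mouse Rps27l probe sets carry a suffix for probes that may bind several transcripts, and the rat one does not. Rpl7l1, known as a factor of large-subunit assembly, was lower in both mutants. It read 1615.9, 1309.7 and 1174.7 in mice (-0.30) and 1507.5, 1053.9 and 1184.4 in rats (-0.52), and its further probe sets lay between -0.30 and -0.16. As deposited, Rpl7l1 was below 0 on all 5 probe sets of the 2 species, although the brightest mouse one shrank to -0.05 with arrays centred. Rpl22l1, the paralogue of Rpl22, read 4935, 4370 and 3805 in mice (-0.18 and -0.20). Rps4l read 1576, 1670.0 and 1271 in mice, 1.31-fold lower after leptin. Rps4y2, a relative of Rps4x, read 421.1, 561.1 and 515.6 in rats (0.41 and -0.12), and Rpl26l1 read 115.1, 127.8 and 122.4 (0.15 and -0.06). After leptin 1 of 4 like proteins was above 0 in each species, as were 33 of 42 and 37 of 39 of the other members and 49.4% and 52.0% of all genes. Mouse Rpl7l1 was below 0 on its brightest probe set alone (-0.16), and its other probe sets gave 0.19 and 0.37; by the median over them, 2 of the 4 mouse like proteins were above 0.

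The larger ratios gathered on dim probe sets. In the mouse genotype comparison, 6 of 18 member probe sets under 1000 on at least 1 array were past 1.5-fold, against 2 of 76 at or above 1000 on all 3. In the other 3 comparisons 2 of 17 (mouse leptin), 2 of 7 (rat genotype) and 2 of 7 (rat leptin) dim probe sets were past 1.5-fold, and none of the 76 mouse or 42 rat probe sets at or above 1000. For the 20 mouse genes with several measured probe sets, the SD between probe sets of a gene was 0.29 on the log2 scale for the genotype ratio and 0.17 for the leptin ratio, against 0.43 and 0.24 over all genes. For the 5 rat genes of that kind it was 0.56 and 0.35, above the 0.43 and 0.24 of all rat genes. These SDs are as large as or larger than most of the members' ratios, and they hold nothing of the variation between animals.

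**Figure D2:**
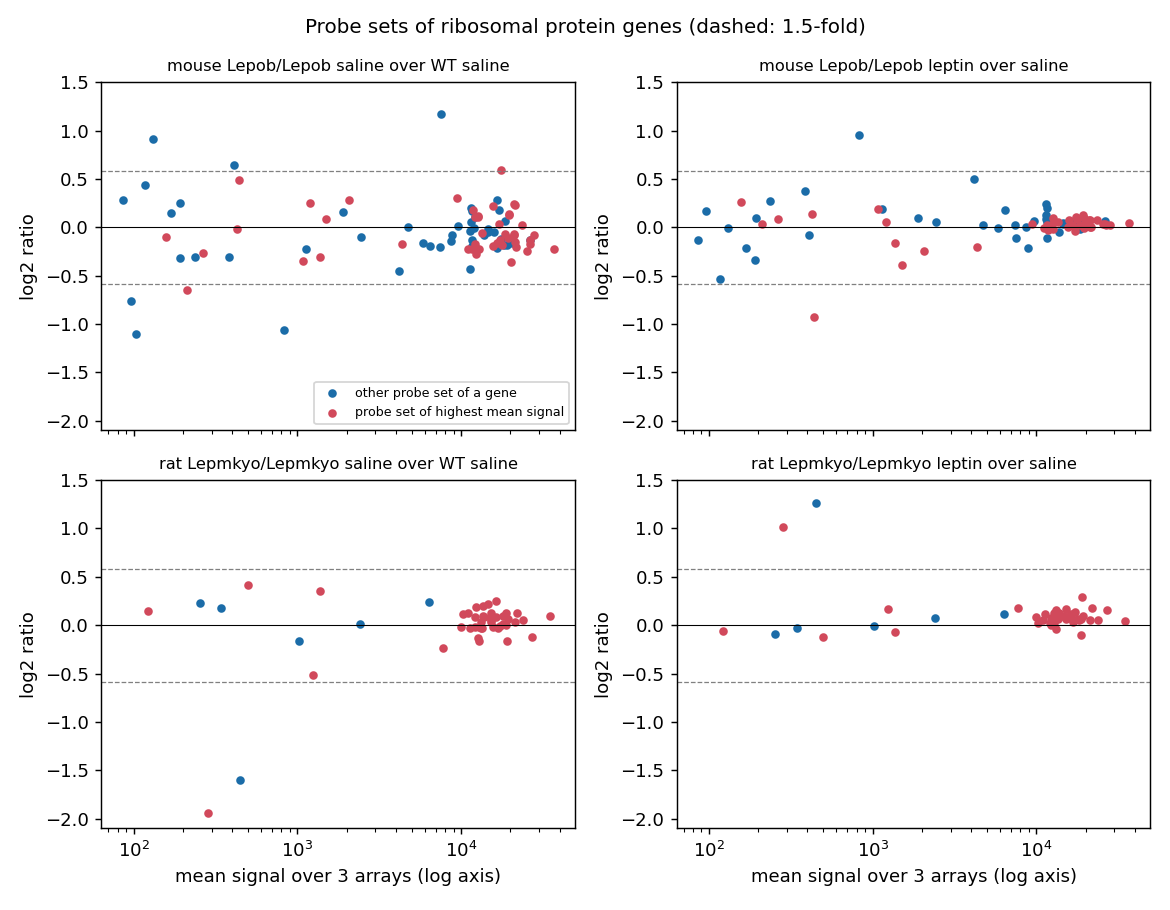
Log2 ratio of each member probe set against its mean signal over the 3 arrays of its species (log axis), with dashed lines at 1.5-fold. Most probe sets above a signal of 1000 lie close to 0, with a mouse Rps10 probe set at 1.17 as the farthest exception, and most of those past the dashed lines lie under 1000.

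For some genes the probe sets took opposite sides. Rps10, a small-subunit protein near the entry of the messenger, had 6 mouse probe sets. One of them read 4252, 9553 and 8876, a log2 ratio of 1.17, and the other 5 had ratios from -0.76 to -0.05; the brightest read 28339, 25153 and 25690 (-0.17). Rps9 read 10934, 12390 and 12184 on its brightest probe set (0.18) and 13019, 9692 and 11501 on another (-0.43). Rps3 gave -0.22 on its brightest probe set, which read 12793, 10987 and 11173, and 0.65 and -1.10 on a pair of dim ones. One of the 3 Rpl37a probe sets read 1025.3, 492.3 and 953.0 (-1.06 and 0.95), while the bright ones gave -0.11 and -0.12 in the mutant. In mice 71 of the 105 member probe sets (67.6%) carried a suffix for probes that may bind several transcripts, against 22.8% of all mouse probe sets with 1 symbol. In rats it was 6 of 55 (10.9%), against 6.05%. Ribosomal protein genes have many processed pseudogenes, whose near-identical sequence such probes cannot set apart.

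**Figure D3:**
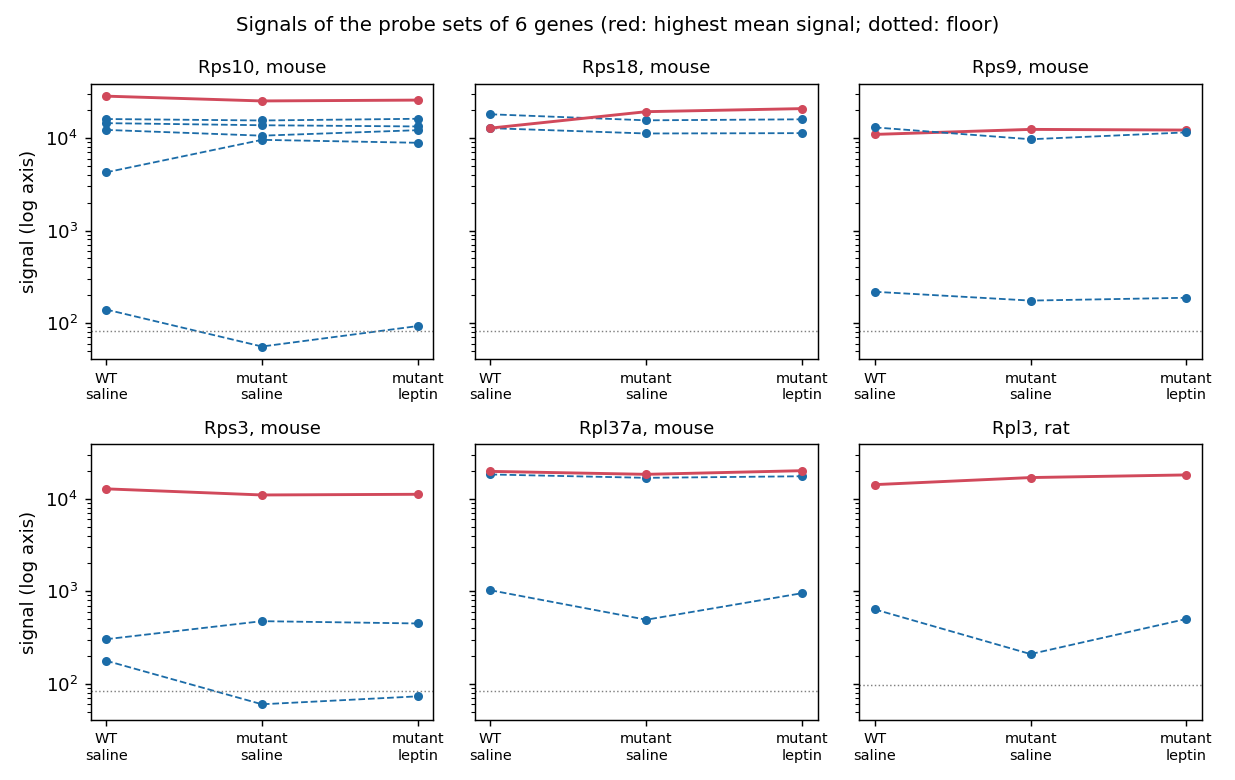
Signal (log axis) of each measured probe set of 6 genes on the 3 arrays of the species, the brightest in red and the others dashed in blue, with the floor dotted. In Rps10, Rps18, Rps9, Rps3 and Rpl3 the lines of a gene run in opposite directions from WT saline to mutant saline; in Rpl37a 1 dim probe set dips in the mutant while the bright ones stay level.

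The 2 species were then compared over the 27 symbols measured in both. Genotype ratios had the same sign for 18 (66.7%), 8 above and 10 below 0, against 58.0% of all 8303 shared genes. Leptin ratios had the same sign for 19 (70.4%), all of them above 0, against 53.9% of 8213. A further 2 were above 0 in mice alone and 6 in rats alone. Most members were thus above 0 in each species, so such a share can arise with no agreement gene by gene. The sizes had little relation: Pearson's r across these genes was 0.06 for genotype and 0.14 for leptin, given as a description, as the genes share the same arrays. With arrays centred the leptin count was 11 of 27, as the mouse median then lies below 0.

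**Figure D4:**
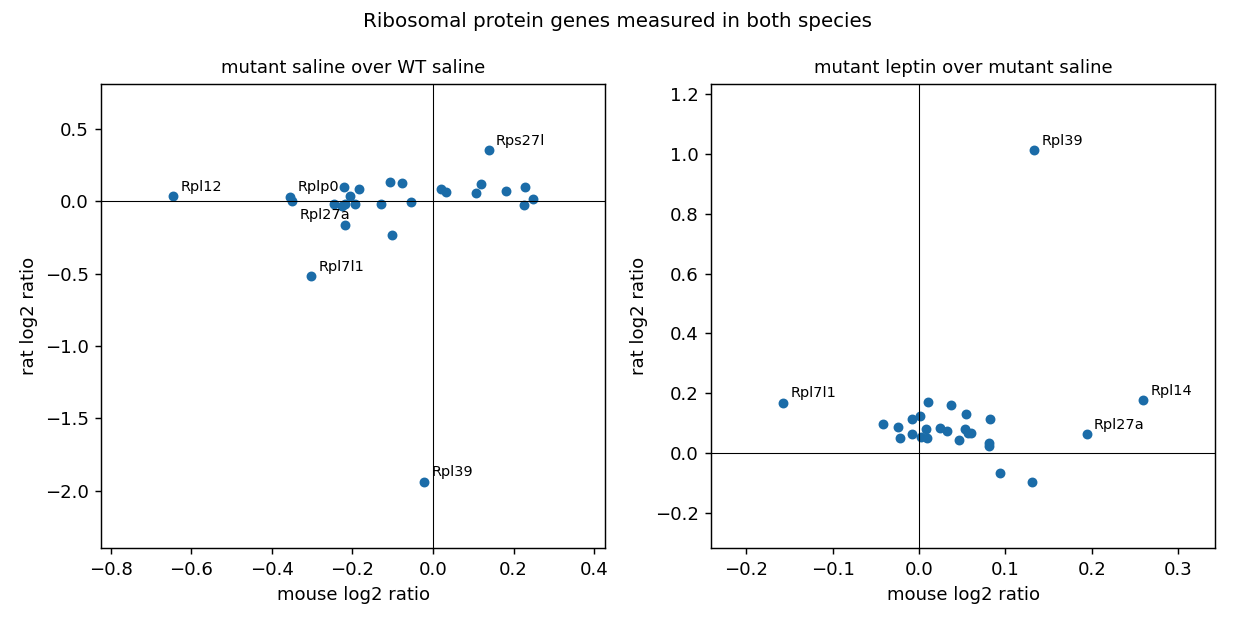
Mouse against rat log2 ratio of the 27 ribosomal protein genes measured in both species, for mutant saline over WT saline (left) and mutant leptin over mutant saline (right). Rpl7l1 lies below 0 and Rps27l above 0 in both species on the left, Rpl12 and Rplp0 are low in the mouse alone, and Rpl39 is far from 0 in the rat alone.

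The other genes of protein synthesis are set beside these values. Of the ribosomal proteins whose symbols fall outside the rule, Fau read 15566, 17697 and 17985 in mice (0.19 and 0.02), and Rack1 read 7600, 7512 and 8332 in rats (-0.02 and 0.15). Of 35 mouse initiation factors 7 were past 1.2-fold above WT and 7 past it below, where 27.5% and 30.5% of all genes were. Among them Eif6, which keeps the large subunit from joining too early, read 2274, 4322 and 4033 (0.93) on its brightest probe set. Another Eif6 probe set gave -1.06, so the direction of Eif6 hangs on the probe set. In the rat mutant 4 of 37 initiation factors were above and 6 below, beside 27.6% and 19.6% of all genes. Eif4ebp1, the mTORC1 target that holds back the cap-binding factor, read 1132, 2344 and 2379 (1.05). Past 1.2-fold above WT were 2 of 8 elongation and termination factors in mice and 2 of 9 in rats, and below it 0 and 2, to be read against the same shares of all genes. The other messengers known to carry a TOP tract had genotype medians of 0.08 over 16 mouse and -0.07 over 12 rat genes, and leptin medians of 0.04 and 0.12.

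The genes of ribosome assembly and rRNA synthesis had quartiles further apart than the ribosomal proteins in each of the 4 comparisons. In the mouse mutant their median was -0.14 over 74 genes, with 29 below and 9 above WT past 1.2-fold, shares to be read against the 30.5% and 27.5% of all genes. Nop58, a core protein of the box C/D particles that methylate rRNA, read 1020.7, 506.2 and 734.8 (-1.01), and Bop1, of the PeBoW complex of large-subunit assembly, read 565.9, 293.9 and 331.6 (-0.95). In the rat mutant the median was 0.06 over 72 genes, with 11 higher and 15 lower (27.6% and 19.6% of all genes). After leptin in rats 32 of 72 lay above mutant saline past 1.2-fold and 3 below, against 13.2% and 14.3% of all genes, and 61 were above 0; the median was 0.23. Examples are Rrp12, an export factor of both subunits, at 150.2, 187.1 and 310.9, and Polr1b, a subunit of the polymerase that makes rRNA, at 346.8, 330.9 and 520.3. The rat members' own median of 0.08 stands beside this. After leptin in mice the assembly genes had a median of 0.01 over 73 genes, with 5 higher and 7 lower (11.7% and 11.9% of all genes). This list was chosen with results of these data known, and the count describes these arrays.

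Of the regulators, Myc, which drives the transcription of ribosome genes, read 106.8, 269.1 and 159.8 in mice (log2 1.33 and -0.75) and 395.3, 1323.0 and 626.4 in rats (1.74 and -1.08). It was high in both mutants on saline and between the other arrays after leptin. Mtor read 1069.0, 1840.9 and 1901.9 in mice (0.78) and 691.8, 1145.0 and 989.2 in rats (0.73). Mouse probe sets of Mtor had genotype ratios from -0.20 to 0.78, so the mouse direction hangs on the probe set. Ddit4, an inhibitor of mTORC1, read 449.0, 833.2 and 1117.6 in mice (0.89) and 272.4, 591.8 and 464.1 in rats (1.12). Other mouse regulators went the other way, with the lowest ratios for Rps6kb2 (-0.68) and Akt1s1 (-0.67). Larp1 read 2797.2, 1813.9 and 1865.9 in mice (-0.62) and 5268.9, 5709.5 and 5197.2 in rats (0.12). Rat probe sets of Larp1 had genotype ratios from -0.70 to 0.12. Of the whole list of regulators, 4 of 17 lay above WT past 1.2-fold and 7 below in the mouse mutant, and 5 and 3 of 17 in the rat mutant, beside 27.5% and 30.5% of all mouse and 27.6% and 19.6% of all rat genes. After leptin 3 were higher and 2 lower of 18 in mice (11.7% and 11.9% of all genes), and 0 and 4 of 17 in rats (13.2% and 14.3%). Of the p53 genes, which the free ribosomal proteins Rpl5 and Rpl11 can switch on, Cdkn1a read 183.3, 891.4 and 802.7 in mice (2.28) and 804.1, 930.8 and 501.8 in rats (0.21 and -0.89). Of that list, 3 of 6 mouse and 1 of 5 rat genes lay above WT past 1.2-fold (27.5% and 27.6% of all genes), and 0 and 1 below (30.5% and 19.6%).

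The mitochondrial ribosome, whose proteins are encoded by separate nuclear genes, had genotype medians of 0.07 over 76 mouse and 0.10 over 73 rat genes. At least 1.2-fold higher were 19 mouse and 14 rat genes (27.5% and 27.6% of all genes) and lower 9 and 5 (30.5% and 19.6%). Mrpl52 read 1345, 3549 and 3717 in mice (1.40). The subunits of oxidative phosphorylation, another set of abundant housekeeping proteins, had genotype medians of 0.11 over 76 mouse and 0.10 over 72 rat genes, with 19 and 15 higher and 3 and 3 lower, to be read against the same shares. After leptin the medians were 0.03 and 0.09 for the mitochondrial ribosome and -0.01 and 0.03 for oxidative phosphorylation. In the mouse mutant the cytosolic ribosomal proteins thus had a median below that of both lists on the same arrays.

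**Figure D5:**
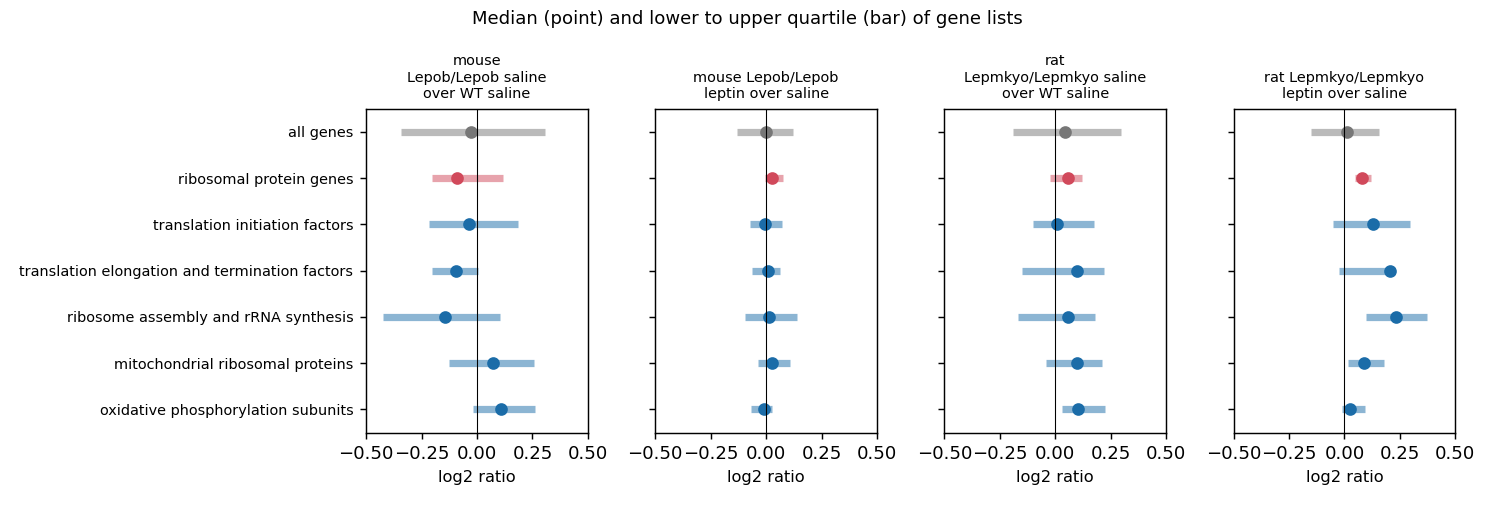
Median log2 ratio (point) and lower to upper quartile (bar) of all genes, the ribosomal protein genes and 5 other lists in the 4 comparisons. The bars of the ribosomal protein genes are shorter than those of all genes in each comparison, and in rats after leptin the ribosome assembly genes have a median of 0.23.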

How the data were processed

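Liver RNA was isolated with Trizol and labelled by the Affymetrix protocol, per the labels. The submitters' processing notes name MAS5, version not given, and each deposited value is the signal intensity of a probe set on a linear scale. MAS5 brings all arrays to the same trimmed mean, found here at 496 to 497 with 2% trimmed from either end; array medians ran from 77.0 to 91.9 in mice and from 93.6 to 99.3 in rats. Detection calls and image files were not used here, so the floor stands in for a detection limit, and the number of arrays limits the precision.

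Symbols came from the platform annotation: 34945 mouse and 20826 rat probe sets had 1 symbol, 932 and 436 had several and 9160 and 9780 had none; only those with 1 were used. Signals under the floor were raised to it before the log2 ratio. With 1 array per group no test was run. Counts are given past 1.2-fold, 1.5-fold and 2-fold beside the same over all genes measured. The calculation was tested on simulated data. Tried besides were quantile normalization, centring on the array median, floors at other quartiles, the median over a gene's probe sets, leaving out probe sets that may bind several transcripts or the like proteins, and updated mouse symbols.

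Members named are those with the largest ratios past 1.2-fold (up to 5 per direction and comparison) or past 2-fold. Also named are genes known for a role, like proteins, and genes whose probe sets differ in sign. Genes named from the other lists are examples and not always the largest ratios. In the mouse assembly list Noc4l (-1.28 in the mutant) was lower than those named. The members and lists were chosen with earlier results of these data known. Python 3.11.15, numpy 2.4.6, pandas 2.3.3 and matplotlib 3.10.9 were used.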

Additional observations from a re-analysis of the deposited data

Results flagged for a closer look

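The median log2 ratio of the ribosomal protein genes in mutant saline over WT saline was on opposite sides of 0 in the 2 species, -0.091 over 46 mouse genes and 0.058 over 43 rat genes, with 1 array per group. The difference between the species was not tested. In mice the side of 0 turned with the scaling (0.0025 after quantile normalization and 0.16 with arrays centred), and the members' median minus that of all genes was -0.06 in mice and 0.01 in rats as deposited.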

How the results depend on the processing

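No paired analysis was possible because each group is 1 array, and for the same reason no replicate could be left out. Scaling changed most. Quantile normalization gave a mouse genotype median of 0.0025 with 0 members at least 1.5-fold lower, a mouse leptin median of -0.0015 with 22 of 46 above 0, and 25 of 43 above 0 in rats after leptin. With arrays centred on their median the mouse genotype median was 0.16 with 40 of 46 above 0, 2 at least 1.5-fold higher and 0 lower, the mouse leptin median was -0.010 with 18 above 0, and 11 of 27 genes had the same sign of the leptin ratio in both species; the median of all genes itself moved to 0.22 in the mouse genotype comparison. With the floor at the lower quartile, which lets in dimmer genes, 2 mouse members lay past 1.5-fold below WT, 1 rat member was higher in the mutant, and 3 were higher and 1 lower after leptin in rats. With the floor at the upper quartile, 0 were lower in either mutant and 0 higher after leptin in rats, and of the ribosome assembly genes 17 of 44 lay past 1.2-fold above mutant saline and 0 below. The median over a gene's probe sets gave 0 mouse members at least 1.5-fold higher, with Rps18 at -0.19, and in rats 2 lower in the mutant and 2 higher after leptin. Without probe sets that may bind several transcripts only 22 mouse members were left: 8 were above 0 and 2 past 1.5-fold below WT, 12 were above 0 after leptin, and 10 and 9 of 17 genes had the same sign in both species for genotype and leptin. The other settings kept the direction of each median, and updated mouse symbols changed no value of the members. For the ribosome assembly genes of rats after leptin, the count at least 1.2-fold higher ran from 30 to 41 under the scalings and the other settings, except at the upper-quartile floor. Dim signal limits Rpl39, Rpl12 and Rps27, each read by a single probe set under 1000.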

Other observations

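Probe sets whose annotation names a ribosomal protein gene beside other symbols, mostly pseudogenes, form a further reading of the same family that the symbol rule leaves out. In mice there were 110 of them, and 103 were measured in the genotype comparison. Their median log2 ratio was -0.11 with 27 above 0, where 47.4% of all genes were. In rats there were 36, with a median of 0.01 and 20 above 0, beside 55.2% of all genes. After leptin the medians were 0.03 in mice, with 69 of 102 above 0, and 0.07 in rats, with 31 of 36 above 0. Above 0 after leptin were 49.4% of all mouse and 52.0% of all rat genes, and 52.0% and 79.3% of the bright genes. At least 1.5-fold higher or lower in the mouse mutant were 1 and 3, where 12.3% and 12.6% of all genes were. None of the rat ones was in either comparison, beside 10.2% and 5.92% of all genes for genotype and 2.12% and 2.59% for leptin. Rpl10, which helps form the last step of large-subunit maturation, was read in mice by a probe set at 31300 in WT, 23290.0 in the mutant on saline and 24213 after leptin (-0.43) and by another at 29648, 25076 and 27008 (-0.24), and in rats at 24946, 24174 and 25915 (-0.05). Rplp1, the partner of Rplp2 in the stalk, read 23271, 19723 and 19954 in mice (-0.24) and 17500.0, 16716 and 17183 in rats (-0.07). Rps6, on its brightest such mouse probe set, read 29148, 26496 and 27750 (-0.14), where its member probe set, at 1051.6 to 1303.4, gave 0.25.

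The highest ratio of this kind, 1.23, belonged to a mouse probe set annotated to both Rpl13 and Tax1bp3, which read 1116, 2624 and 2395. The 3 other mouse probe sets naming Rpl13 gave -0.11, -0.15 and -0.18.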
